A study of Mus musculus with 8 samples.

Results

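The longest genes of the mouse genome were examined in maps of open chromatin from blood progenitors. Of 20665 autosomal protein-coding genes in the RefSeq table of GRCm38.p6, the assembly of mm10, 118 had a gene body of 700 kb or more. No symbol was listed for more than one gene, so none had to be skipped. The 118 genes, called long genes here, had a median length of 960 kb. Their lengths summed to 126 Mb, or 12.5% of the summed length of all these genes, with overlapping genes counted each. They were set against 1368 autosomal genes of 100 to 200 kb, called medium genes, with a median length of 132 kb and a summed length of 188 Mb. The rule for both sets used length alone and no measured value, but it was set with earlier results of these data known.

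The measurements were ATAC-seq peaks from 8 libraries of wild-type C57BL/6 mouse bone marrow, 2 for each of 4 populations of common myeloid progenitors, the cells from which megakaryocytes, red cells, granulocytes and monocytes arise. All 4 populations were sorted as KIT+ CD16/32- cells. C2 cells were CD34bright CD41+ CD9+, C13 cells were CD34dim CD41- CD9-, C10 cells were CD34dim CD41+ CD9+ CD48bright, and C18 cells were CD34dim CD41+ CD9+ CD48dim. The series text names clusters that are only partly those of the sample titles, and the titles were followed. The labels give neither age nor sex and leave it unsaid if replicate libraries were made from separate mice, so p-values measure the spread between these libraries only, which may be technical.

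In ATAC-seq a transposase inserts adapters into DNA that it can reach, and the resulting peaks lie mostly at promoters and enhancers. Very long genes owe their length to large introns rather than to coding sequence. In mammals many of them encode adhesion molecules, ion channels and receptors of neurons, and several lie in common fragile sites, which tend to break when DNA replication is slowed. A smaller number encode transcription factors, RNA-binding proteins and signalling enzymes that blood cells also use.

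Each library came with an F-Seq list of 100000 peaks and a HOMER list, of varying length, of peaks 150 bases wide. A list of fixed length gives the share of peaks that fall in a gene and not an absolute number of open sites. Of the 7 genes of the sorted phenotype, Kit, Cd34, Itga2b, Cd9, Cd48 and Fcgr2b had an F-Seq peak within 1 kb of their start in 8 of 8 libraries and Fcgr3 in 5. Itga2b and Cd9 thus had a start peak in both C13 libraries, although C13 cells were sorted as negative for their proteins. All populations were sorted as negative for the proteins of Fcgr2b and Fcgr3. For these genes the start peaks did not follow the sorted phenotype, so they are no check of the sort. Of the markers of other cells, Rbfox3 (neurons) and Cd3e (T cells) had none, Syt1 (neurons) and Cd79a (B cells) had one in 1 library, and the neuronal genes Tubb3 and Map2 had one in 7 and 8 libraries. Markers of stroma, endothelium and erythroblasts had no listed start. Because these are bulk samples, fewer cells of a type and fewer open copies per cell cannot be told apart.

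Long genes held far fewer peaks per length than medium genes in every library. The F-Seq lists had 14.9 ± 1.09 peaks per Mb in long genes and 59.3 ± 0.84 peaks per Mb in medium genes (SD, n = 8 libraries). By library, the density in long genes was 13.9 and 13.7 peaks per Mb in C2, 14.9 and 13.8 in C13, 16.6 and 15.5 in C10, and 15.9 and 15.0 in C18. In medium genes it lay between 57.9 and 60.2 peaks per Mb in all 8 libraries, so the ranges of the gene classes were far apart. The log2 ratio of long over medium genes averaged -1.99 and ran from -2.13 to -1.84 (exact sign-flip permutation test over 8 libraries, two-sided, p = 0.0078, the smallest this design allows). Long genes thus held 1.88% of the peaks of a list on average, against 11.2% in medium genes.

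The bases under peaks showed the same order. Peaks covered 11.1 ± 2.09 kb per Mb of long genes and 51.2 ± 7.73 kb per Mb of medium genes, a log2 ratio of -2.22 (same exact test, p = 0.0078). The covered length in long genes was lowest in the C18 libraries, with 7.98 and 9.21 kb per Mb, and highest in the C10 libraries, with 13.9 and 13.4 kb per Mb. Medium genes also had their lowest values in C18, at 35.5 and 45.3 kb per Mb, where the F-Seq peaks were narrowest. With the HOMER lists the densities were 29.0 peaks per Mb in long genes (6.54 to 45.6) and 108 peaks per Mb in medium genes (36.9 to 152), and the log2 ratio was -2.05 (exact p = 0.0078). Direction and call held in all 22 alternatives for peaks, 18 for bases and 17 for starts, with log2 ratios of peaks between -2.49 and -1.60.

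The difference was part of a fall along the whole range of gene length. F-Seq density fell through the 8 length classes, with 111 peaks per Mb in genes under 20 kb, 77.2 at 20 to 50 kb, 64.6 at 50 to 100 kb, 59.3 at 100 to 200 kb, 45.3 at 200 to 400 kb, 30.6 at 400 to 700 kb, 19.3 at 700 to 1000 kb and 11.8 above 1000 kb. When peaks within 5 kb of any listed gene start were left out, the order changed among the short classes but not among the long ones. Density without starts was 19.7 peaks per Mb under 20 kb, was highest at 48.2 peaks per Mb in the 100 to 200 kb class, and was 16.8 at 700 to 1000 kb and 11.1 above 1000 kb. The whole gene body, with the stretches near starts, stayed the length divided by. This lowers the values of short genes most, so the order among the short classes cannot be read as one of open chromatin. The log2 ratio of long over medium genes without starts was -1.84 (exact sign-flip permutation test, p = 0.0078, n = 8).

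**Figure D1:**
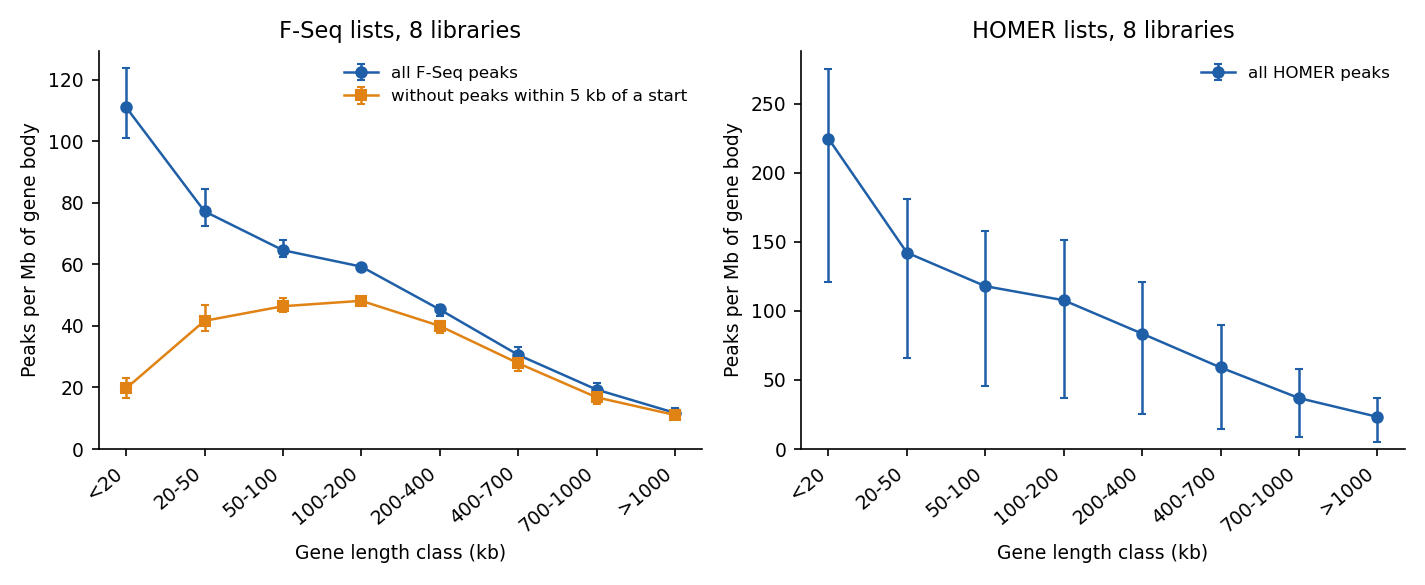
Peaks per Mb of gene body (vertical axis) by gene length class in kb (horizontal axis), F-Seq lists on the left and HOMER lists on the right; points are means and bars the lowest and highest of 8 libraries. All F-Seq peaks fell with length to 11.8 peaks per Mb above 1000 kb. Without peaks near starts the class of 100 to 200 kb was the highest, at 48.2 peaks per Mb. Those values still divide by the whole gene body, which lowers the short classes most.

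Density varied widely within the class. The 118 members had a median of 12.9 peaks per Mb, with quartiles at 4.23 and 21.5, a lowest mean of 0.422 and a highest of 80.2. The median of medium genes was 51.9 peaks per Mb, and 4 members lay above it. Fewer than 10 peaks per Mb were found in 49 members (41.5%) and in 98 medium genes (7.16%). The peaks were unevenly shared among members. The 10 members with the most peaks held 25.2% of all 15007 member peaks summed over the 8 libraries, and 26 members were enough for 50% of them. Peaks in overlapping members were counted for each member.

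The 8 members with the highest density were Arhgap26, Tenm4, Wwox, Pde4d, Camta1, Sox5, Celf2 and Rora. Arhgap26, a GTPase-activating protein that is fused to MLL in some leukaemias, had 65.8 and 80.0 peaks per Mb in C2, 91.7 and 95.5 in C13, 85.2 and 85.2 in C10, and 68.4 and 69.7 in C18. It was the only member above the medium median in all 8 libraries. Wwox, an oxidoreductase at a common fragile site, spans chr8:114439635-115352712 and averaged 57.2 ± 8.66 peaks per Mb. Pde4d, a phosphodiesterase that breaks down cyclic AMP, spans chr13:108654177-109955969 and averaged 55.2 ± 4.93. Tenm4, a teneurin adhesion receptor, averaged 58.6 ± 6.89 peaks per Mb (SD, n = 8 libraries for each). Camta1, a transcription activator, varied most among these 8, with 48.6 and 51.1 peaks per Mb in C2, 31.2 and 31.2 in C13, 41.1 and 36.1 in C10, and 58.6 and 84.8 in C18. The remaining members of this group encode the transcription factor Sox5 (44.7 ± 9.21 peaks per Mb), the splicing regulator Celf2 (42.8 ± 5.61) and the nuclear receptor Rora (39.98 ± 3.84).

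The 8 members with the lowest density were Nell1, Cdh18, Naaladl2, Cntnap5a, Cdh12, Sntg1, Nkain2 and Cadm2. Nell1, a secreted protein of bone formation, had 1 and 0 peaks in C2, none in C13, none in C10, and 0 and 2 in C18 across 888 kb (chr7:49975350-50863289). Cdh18, a cadherin of 929 kb (chr15:22548898-23477491), had 4 and 1 peaks in C2 and none in the other 6 libraries. Naaladl2, a peptidase-like protein of 1346 kb, had 3 and 1 peaks in C2, none in C13, 2 and 1 in C10, and 3 and 3 in C18. Peaks of these 3 members were so few that presence or absence in a library turned on 1 to 4 peaks. The start of Cadm2, a synaptic adhesion molecule, carried a peak in 8 of 8 libraries, while its body averaged 1.94 ± 1.51 peaks per Mb. By contrast, Nell1 and Nkain2 had a start peak in 1 library and Cdh18 and Cdh12 in none. Naaladl2, Cntnap5a and Sntg1 had no listed start and could not be compared.

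The 5 longest genes were Ptprd, a receptor phosphatase (2270 kb, 4.07 ± 1.61 peaks per Mb), Cntnap2, a neurexin relative (2241 kb, 10.1 ± 1.77), Lsamp, a cell adhesion molecule of the limbic system (2197 kb, 5.06 ± 1.89), Lrp1b, a lipoprotein receptor relative (2058 kb, 2.19 ± 2.23), and Macrod2, an enzyme that removes ADP-ribose (1998 kb, 15.3 ± 0.60; SD, n = 8 libraries). By F-Seq, Macrod2 was even across populations, with 32 and 31 peaks in C2, 31 and 30 in C13, 31 and 30 in C10, and 28 and 31 in C18. By HOMER it was not, with 50 and 67 peaks in C2, 99 and 81 in C13, 79 and 77 in C10, and 12 and 13 in C18. These HOMER counts were not scaled to the length of the lists, which was shortest in C18, and the part of list length was not tested. Just above 700 kb, Fgf14 had 2.13 and Mgat4c 7.04 peaks per Mb. The genes nearest below it were Arhgap24 at 38.2, Grik2 at 1.62 and Plcb1 at 32.5 peaks per Mb, so the genes just below the threshold included dense and sparse ones.

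**Figure D2:**
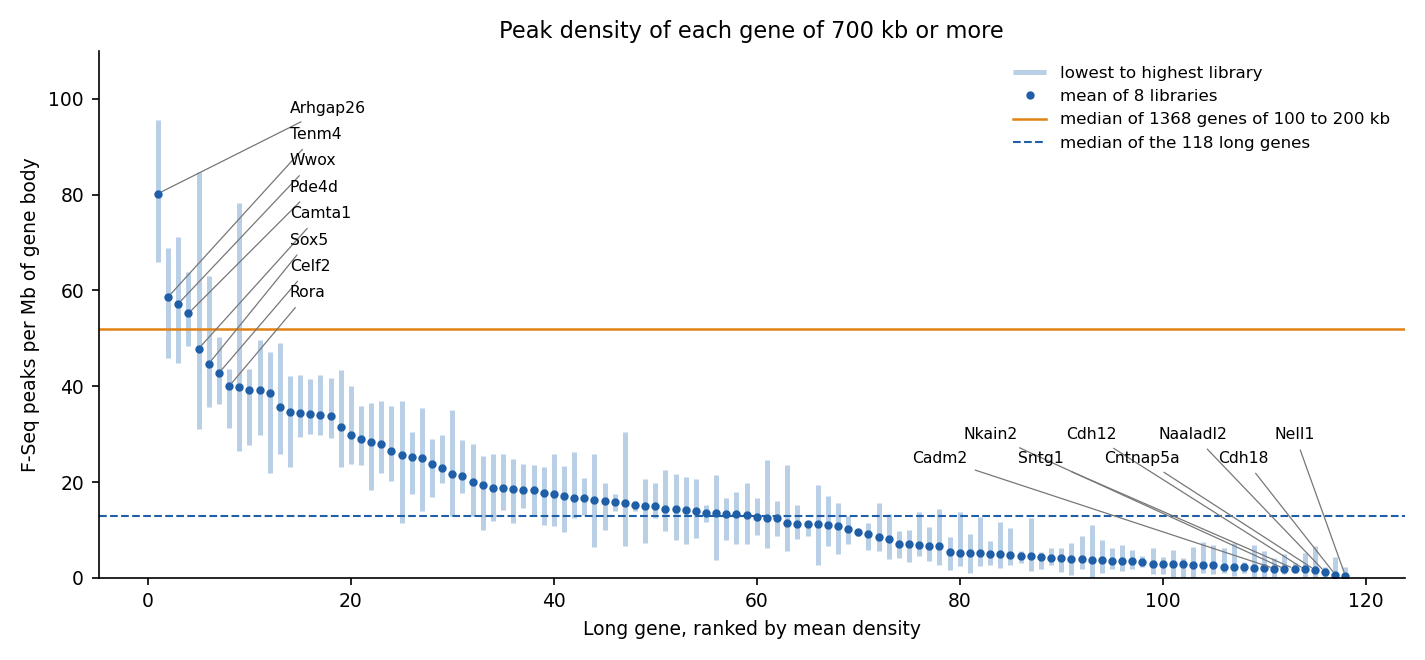
F-Seq peaks per Mb of gene body (vertical axis) of each of the 118 long genes, ranked by their mean (horizontal axis); points are means and bars run over 8 libraries, with the medians of medium genes (51.9) and long genes (12.9) as lines. The 8 highest and 8 lowest members are named, and 4 members lay above the median of medium genes.

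Members also held long stretches without any region of the merged F-Seq lists. The longest stretch with no F-Seq peak region in any library had a median of 161 kb over the members. It ran from 26.2 kb in Arhgap26 to 664 kb in Nell1 and exceeded 200 kb in 43 members. The stretches were not searched for peaks of the HOMER lists. In Naaladl2 it measured 646 kb and in Cdh18 502 kb. Most members stood alone, since 92 held no start of another protein-coding gene and 20 held 1. The predicted genes Gm37013, Gm38666 and Gm38667 overlap in 1 stretch of the protocadherin cluster, so their 33.7, 34.03 and 34.1 peaks per Mb are nearly the same peaks counted under 3 names. Counting overlapping gene bodies once gave a log2 ratio of -2.02 (exact permutation test, p = 0.0078), and members without another start gave -2.00 (exact p = 0.0078).

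Starts of long genes were open less often than starts of medium genes. A start was listed in the promoter table for 90 long and 1065 medium genes, and the outermost listed start was used. An F-Seq peak lay within 1 kb of it in 45.6 and 43.3% of long genes in C2, 44.4 and 41.1% in C13, 48.9 and 41.1% in C10, and 42.2 and 42.2% in C18. In medium genes the share was 74.1 to 79.3% over the 8 libraries. The mean difference was -33.8 percentage points (exact sign-flip permutation test, two-sided, p = 0.0078, n = 8). The listed start lay within 1 kb of the edge of the gene body in 65 long and 874 medium genes, which left room for unlisted starts in the others. Among those the shares were 52.3 ± 3.49% of long and 78.8 ± 1.47% of medium genes, a difference of -26.5 points (exact p = 0.0078).

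A start peak was present in all 8 libraries for 26 long genes, in 1 to 7 for 29 and in none for 35. The longest genes open in all 8 were Macrod2, Fhit, Ctnna3, Magi2, Gpc5, Agbl4, Ccser1, Prkg1, Erbb4, Lrmda, Robo1 and Pard3b. The longest with a start peak in none were Dlg2, Nrxn3, Rbfox1, Dpp10, Lrrc4c, Pde4d, Tenm3, Cntn5, Lingo2, Tenm2, Cdh12 and Galntl6. For Dlg2, Dpp10, Nrxn3, Tenm2, Tenm3, Lingo2 and Cdh12 of these, and for Magi2 and Robo1 among those open in all 8, the listed start lay over 1 kb inside the gene body.

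The promoter windows of 4 members whose listed start marks the edge of the gene body are shown, from 250 bases before to 50 after the start, as listed by RefSeq on GRCm38.p6, with every CG dinucleotide in capitals. Macrod2 at chr2:140395180-140395479 (plus strand) and Fhit, a diadenosine triphosphate hydrolase at a fragile site, at chr14:11161986-11162285 (minus strand) carried a start peak in 8 of 8 libraries. Pde4d at chr13:108653927-108654226 (plus strand) and Celf2 at chr2:7396149-7396448 (minus strand) are among the 8 densest members and carried a start peak in none.
Macrod2: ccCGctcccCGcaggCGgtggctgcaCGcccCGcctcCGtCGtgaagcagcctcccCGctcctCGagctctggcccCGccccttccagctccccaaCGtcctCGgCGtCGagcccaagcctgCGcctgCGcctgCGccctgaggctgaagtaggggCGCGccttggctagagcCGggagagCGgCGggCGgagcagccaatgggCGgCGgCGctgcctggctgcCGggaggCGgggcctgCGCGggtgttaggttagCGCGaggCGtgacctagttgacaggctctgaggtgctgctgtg
Fhit: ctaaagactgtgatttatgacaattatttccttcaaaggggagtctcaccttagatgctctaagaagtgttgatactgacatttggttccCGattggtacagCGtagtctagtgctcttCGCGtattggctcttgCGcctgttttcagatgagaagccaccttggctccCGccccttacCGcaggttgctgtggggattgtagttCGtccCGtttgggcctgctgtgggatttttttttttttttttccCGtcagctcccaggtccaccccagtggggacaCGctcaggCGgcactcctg
Pde4d: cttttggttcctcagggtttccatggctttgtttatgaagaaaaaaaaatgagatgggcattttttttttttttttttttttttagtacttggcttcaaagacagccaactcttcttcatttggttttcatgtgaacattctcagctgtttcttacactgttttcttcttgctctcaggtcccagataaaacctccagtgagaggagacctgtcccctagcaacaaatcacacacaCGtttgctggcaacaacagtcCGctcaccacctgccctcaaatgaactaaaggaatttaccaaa
Celf2: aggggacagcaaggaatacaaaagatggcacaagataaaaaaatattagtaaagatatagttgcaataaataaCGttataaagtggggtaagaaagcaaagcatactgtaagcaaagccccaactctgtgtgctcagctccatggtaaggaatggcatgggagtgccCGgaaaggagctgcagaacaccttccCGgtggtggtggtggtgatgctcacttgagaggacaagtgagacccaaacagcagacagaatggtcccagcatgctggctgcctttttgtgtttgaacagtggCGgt
The windows hold 33 CG dinucleotides in Macrod2, 12 in Fhit, 2 in Pde4d and 4 in Celf2. Over all members with a listed start, the median was 24.5 in those with a start peak in all 8 libraries, 14 in those with 1 to 7 and 9 in those with none. Medium genes had medians of 25 with a peak in all 8 libraries and 6 with none, so CG content ran with the start peak in both length classes. Single members departed from this order: of the 35 with no start peak, Ptprt (46), Cacna2d3 (41), Kcnma1 (36), Erc2 (31), Rora (28) and Cntn5 (26) had more CG dinucleotides than the median of those open in all 8, and Agbl1 had 4 with a start peak in all 8. The motif GGGCGG of SP and KLF factors, searched on both strands, was found in 61.5% of long-gene windows open in all 8 libraries, 41.4% of those open in 1 to 7 and 25.7% of those open in none, against 72.8% of medium-gene windows open in all 8, 26.7% of those open in none and 47.3% of all 16457 autosomal windows. AGATAA, the GATA motif, was found in 8.89% of the 90 long-gene windows and 9.85% of all windows; GGAAGT of ETS factors in 14.4% and 25.3%; and TGTGGT of RUNX factors in 11.1% and 14.8%. A match of letters is a description of the window and not a bound site.

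**Figure D3:**
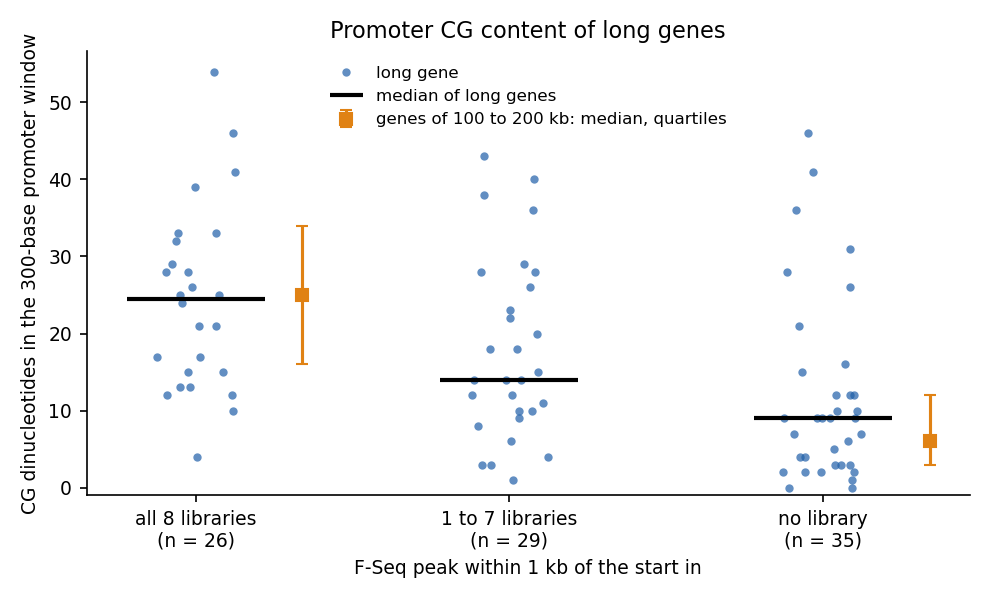
CG dinucleotides in the 300-base promoter window (vertical axis) of 90 long genes, by the number of libraries with an F-Seq peak within 1 kb of the start (horizontal axis); bars are medians of long genes, and squares with whiskers the medians and quartiles of medium genes. The medians of long genes were 24.5, 14 and 9, and those of medium genes 25 with a start peak in all 8 libraries and 6 with none.

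The density of the gene body was then set beside the state of the start. Long genes with a start peak in all 8 libraries averaged 18.6 ± 1.39 peaks per Mb, those with 1 to 7 averaged 11.7 ± 0.88 and those with none 13.8 ± 1.22. The matching values of medium genes were 66.9 ± 1.16, 49.97 ± 1.38 and 33.8 ± 0.48 peaks per Mb (SD, n = 8 libraries). Long genes were thus sparser than medium genes at each state of the start, and the long genes with an open start were sparser than the medium genes without one in every library. The highest library of long genes with an open start had 20.5 peaks per Mb, and the lowest library of medium genes without one had 33.2.

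Along the gene, density fell steeply over the first 5 kb, and beyond that it showed no steady fall in long genes. In the 65 long genes whose listed start marks the edge, the first kb held 300 ± 27.3 peaks per Mb and the next 4 kb 48.6 ± 14.8, against 479 ± 15.6 and 81.7 ± 8.60 in the 874 such medium genes. Beyond 5 kb the bins of long genes lay between 13.6 and 18.2 peaks per Mb, out to 700 kb from the start. The bins of medium genes went on falling slowly, from 60.1 peaks per Mb at 5 to 20 kb to 49.996 at 100 to 200 kb. At 50 to 100 kb from the start, where both classes are inside the gene, long genes had 13.8 ± 2.49 and medium genes 52.0 ± 1.43 peaks per Mb.

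**Figure D4:**
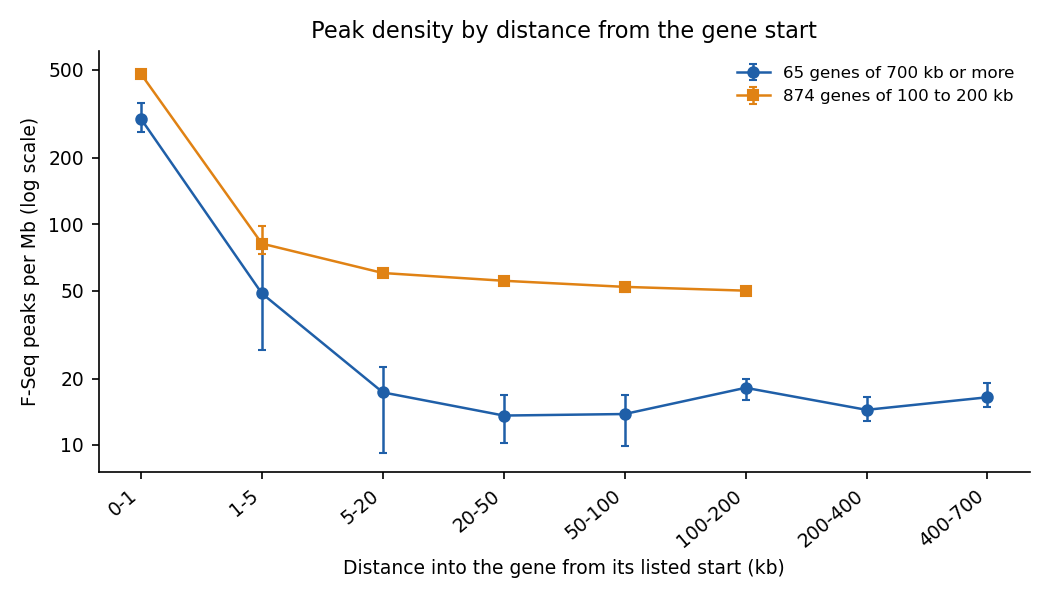
F-Seq peaks per Mb (vertical axis, log scale) by distance into the gene from its listed start in kb (horizontal axis) for 65 long and 874 medium genes whose listed start lies at the edge of the gene body; points are means and bars the lowest and highest of 8 libraries. Long genes lay under medium genes in every bin that both classes reach, with 13.8 against 52.0 peaks per Mb at 50 to 100 kb.

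By role, the neuronal lists had the lowest densities. The synaptic adhesion and axon guidance list had 47 members with a median of 5.24 peaks per Mb, and 29 of them had fewer than 10. Its longest members were Ptprd, Cntnap2, Lsamp and Lrp1b, and its densest was Tenm4 at 58.6 peaks per Mb. The 12 channels and neurotransmitter receptors had a median of 6.71 peaks per Mb and none above 16.1, the value of Dpp6, a potassium channel subunit. Examples among their longest members were Dpp10 (4.0 peaks per Mb), Kcnip4, a potassium channel partner (6.7), and Asic2, an acid-sensing channel (11.1).

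The denser lists were those of regulators. The 11 transcription, chromatin and RNA-binding factors had a median of 39.1 peaks per Mb and none under 11.4. They include Rbfox1, a splicing factor (14.4 peaks per Mb), Auts2, a Polycomb partner (39.1), Rbms3, an RNA-binding protein (11.4), and Lrmda, a pigment cell gene that the list holds although it is not known as such a factor (31.5). The 11 members with described roles in blood cells had a median of 39.2 peaks per Mb, a lowest of 16.7 in Exoc4 and a highest of 80.2 in Arhgap26; 5 of them are also in the transcription list. The 15 kinases, phosphatases and adaptors had a median of 16.7 peaks per Mb, the 21 genes of fragile sites 18.3 and the 31 members in no list 15.7. All 118 members had a median of 12.9. The lists overlap, and no test is given for them. They were also not matched for length, and density fell with length inside the class. It was 19.3 peaks per Mb at 700 to 1000 kb and 11.8 above 1000 kb. The part of length in the differences between lists was not tested. Of the genes with a listed start, 5 of 36 in the adhesion list, 2 of 10 in the transcription list and 8 of 14 in the fragile-site list had a start peak in all 8 libraries.

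A smaller share of the open regions in long genes was found in every library. The merged F-Seq lists gave 4852 regions in long genes and 22998 in medium genes. Of these, 494 (10.2%) in long genes and 4096 (17.8%) in medium genes were called in all 8 libraries, and 50.6% in long and 39.9% in medium genes in 1 library. These are counts of regions, with no test. No region in all 8 libraries was found in 28 members. The C18 libraries gave the largest shares of the single-library regions in long genes, at 31.2 and 29.0%, and also in medium genes, at 27.2 and 31.1%.

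Next, regions were counted that were specific to a population, meaning present in its 2 lists and absent from the other 6. Long genes held 10 such regions of C2, 255 of C13, 89 of C10 and 63 of C18. As a share of the regions in long genes called in both libraries of the population, these were 0.966% in C2, 16.7% in C13, 5.58% in C10 and 7.97% in C18. In medium genes the shares were 1.73% in C2, 11.4% in C13, 2.49% in C10 and 5.75% in C18. Both HOMER lists of the population also had a peak in 3 of the 10 regions of C2, 245 of the 255 of C13, 84 of the 89 of C10 and 2 of the 63 of C18. A HOMER list of another population had a peak in 5 of the regions of C2, 132 of those of C13, 43 of those of C10 and 17 of those of C18, so that many regions specific by F-Seq were not specific by HOMER. The members with the most such regions were Celf2 with 16, Hdac9, a histone deacetylase, with 14, Pde4d and Auts2 with 13 each, and Sox5 with 12. These raw counts come from members rich in regions, with 85 in Celf2, 132 in Pde4d, 113 in Auts2 and 109 in Sox5. Of all regions in long genes, 0.21% were specific to C2, 5.26% to C13, 1.83% to C10 and 1.30% to C18. Over the genome the shares were 0.51, 4.70, 0.99 and 1.41%. In Hdac9 11 of the 14 belonged to C13 and 3 to C10. Asic2 had 10, and all of them belonged to C13.

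Peaks in long genes were narrower and lower in the ranking of their list. Their median width averaged 607 ± 109 bases in long genes and 703 ± 106 bases in medium genes and was lower in long genes in 8 of 8 libraries (exact sign-flip permutation test, two-sided, p = 0.0078). The 20000 strongest peaks of a list made up 12.9 ± 2.29% of the peaks in long genes and 18.1 ± 1.18% of those in medium genes. The 20000 weakest made up 24.99 ± 2.46% in long and 20.8 ± 0.34% in medium genes (exact p = 0.0078 for each share, same order in 8 of 8 libraries; SD, n = 8). Support by the HOMER list of the same library was higher in long genes in all 6 C2, C13 and C10 libraries and lower in both C18 libraries. In C18 it was 28.4 and 28.2% of F-Seq peaks in long genes, against 39.8 and 39.7% in medium genes. In C13 it was 98.02 and 97.6% in long genes, against 94.1 and 93.3% in medium genes.

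The populations were then compared in the ratio of the length classes. The log2 ratio of peak density, long over medium genes, was -2.06 and -2.13 in C2, -1.97 and -2.10 in C13, -1.84 and -1.95 in C10, and -1.89 and -2.01 in C18. Values of C13 overlapped those of C2 and C18, and values of C18 overlapped those of C10, while both C2 values lay below those of C10 and C18, and both C13 values below those of C10. The range of the 4 means was 0.198, and the difference did not pass the test (exact permutation test over 105 groupings, one-sided, p = 0.2, smallest possible p = 0.0095). In each population replicate 1 lay above replicate 2. A test of the same values within replicate numbers, chosen after seeing the data, gave the smallest p it allows (exact permutation test over 24 groupings, p = 0.042). With the HOMER lists the means were -2.09 in C2, -1.79 in C13, -1.72 in C10 and -2.60 in C18, a range of 0.879 (exact permutation test, n = 8, p = 0.019). The C18 HOMER lists were also the shortest, with 72379 and 83548 peaks, against 171712 and 196264 in C2 and 235812 to 260118 in C13 and C10. With the 70000 highest-scoring HOMER peaks of each library, a setting chosen after seeing the data, the means were -2.59 in C2, -2.42 in C13, -2.11 in C10 and -2.63 in C18, a range of 0.516 (exact p = 0.048). With the 20000 strongest F-Seq peaks the means were -2.62 in C2, -2.46 in C13, -2.18 in C10 and -2.69 in C18, a range of 0.507 (exact p = 0.057). C10 had the ratio nearest to 0 in each of these 4 settings.

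Single members were then compared between populations by the bases under F-Seq peaks in their gene body, scaled to equal total covered length and fitted with limma over 16462 autosomal genes. All 118 members were among the genes tested. Differences are on the log2(bases + 200) scale with a standard error (SE) from the fit, and a call needs an adjusted p under 0.05 over all genes (limma, Benjamini-Hochberg). The comparisons share the C10 and C18 libraries. C2 was compared with the mean of C10 and C18, which asks for differences by CD34. No member was called higher or lower in C2 (limma), where 0.0364% of all genes tested were called higher and 0.0243% lower. At an unadjusted p under 0.05, 5 members were higher and 34 lower, where 8.16% and 6.95% of all genes were, and the HOMER lists also gave 0 calls in either direction. The median log2 difference was -0.19 over members and 0.03 over all genes. Without C18 replicate 1 the medians were -0.13 over members and 0.03 over all genes, and without C18 replicate 2 they were -0.24 and 0.03. Some members were called lower in these fits, which leave 1 library in a group, and their counts are not given.

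C13 was compared with the mean of C10 and C18, which asks for differences by CD41 and CD9. With the F-Seq lists, 3 members (2.54%) were called higher, where 2.75% of all genes were, and 15 members (12.7%) were called lower, where 2.98% of all genes were. Of the medium genes tested, 4.39% were called higher and 5.44% lower. The median log2 difference was -0.09 over members and -0.07 over all genes. The 3 higher members were Ctnnd2, a delta-catenin of synapses, Asic2, and Prkg1, a kinase activated by cyclic GMP. Ctnnd2 had 23.3 and 21.5 kb under peaks in C13, against 13.6 and 12.5 kb in C10 and 6.96 and 7.48 kb in C18. Both C13 libraries lay above the others, and the log2 difference was 1.19 (SE 0.10, adjusted p = 0.0077, limma). Asic2 had 13.3 and 13.2 kb in C13, against 4.51 and 4.85 kb in C10 and 7.58 and 5.84 kb in C18 (log2 difference 1.22, SE 0.23, adjusted p = 0.036, limma). Prkg1 had 22.3 and 21.0 kb in C13, against 16.8 and 18.4 kb in C10 and 14.8 and 13.2 kb in C18 (log2 difference 0.46, SE 0.10, adjusted p = 0.047, limma).

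Lower members with the smallest p included Rbfox1, Naaladl2, Ptprd, Cntnap5a, Nav3, Csmd1 and Robo2. Rbfox1 had 8.49 and 6.95 kb in C13, against 26.3 and 22.7 kb in C10 and 15.8 and 16.8 kb in C18 (log2 difference -1.35, SE 0.13, adjusted p = 0.011, limma), and its groups did not overlap. Ptprd, the longest gene, had 2.56 and 1.69 kb in C13, against 9.34 and 7.99 kb in C10 and 7.62 and 5.14 kb in C18 (log2 difference -1.73, SE 0.22, adjusted p = 0.015, limma). Nav3, a navigator of growing axons, Csmd1, a complement regulator, and Robo2, a receptor for Slit ligands, had log2 differences of -1.36, -1.20 and -0.95. Naaladl2 was listed at 0 kb in both C13 libraries, against 1.64 and 0.81 kb in C10 and 1.89 and 1.35 kb in C18. Cntnap5a was listed at 0 kb in C13 and in C10, against 2.86 and 1.98 kb in C18. A fitted difference from a group at 0 depends on the offset of 200 bases and is not given. Iqschfp, Adamtsl1, Tenm2, Etl4 and Ctnna2 were also called lower. Of the 47 members in the adhesion list 7 were called lower, a share close to that of all 118 members.

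The C13 calls depended on the caller and the libraries. The HOMER lists called 30 members (25.4%) higher and 0 lower in C13, where 7.07% and 4.63% of all genes were called. Among the 3 higher members, Ctnnd2 and Asic2 were also called with HOMER (log2 differences 1.83 and 2.55), and Prkg1 had 0.96 without a call. Of the 15 lower members 10 kept a negative difference with HOMER, 5 turned positive, and 0 were called lower. Ctnna2 (0.65, adjusted p = 0.049, limma) was called higher with HOMER. Without scaling the F-Seq lists gave 10 members higher and 9 lower, where 5.77% and 1.44% of all genes were called, and moved the median of all genes to 0.16. The calls were not stable to leaving out single libraries, and calls were lost without either C13 library. Those fits leave 1 library in a group, so their counts are not given. The median over members was -0.18 without C13 replicate 1 and 0.01 without C13 replicate 2, against -0.07 over all genes in both. Without a C10 or C18 library it lay between -0.18 and -0.06, against -0.07 to -0.06 over all genes.

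C10 was compared with C18, which asks for differences by CD48. With the F-Seq lists, 10 members (8.47%) were called higher in C10, where 5.15% of all genes were, and 9 members (7.63%) were called lower, where 7.85% of all genes were. Of the medium genes tested, 9.9% were called higher and 8.12% lower, so the members showed no excess over them. The median log2 difference was 0.19 over members and -0.17 over all genes. The 8 higher members with the smallest p were Ccser1, Auts2, Nrg3, Ctnnd2, Magi2, Inpp4b, Csmd3 and Gpc5, followed by Fhit and Celf2. Ccser1, a fragile-site neighbour of unclear role, had 24.2 and 21.8 kb in C10, against 7.93 and 10.1 kb in C18 (log2 difference 1.34, SE 0.14, adjusted p = 0.0085, limma). Auts2 had 46.5 and 45.0 kb in C10, against 26.6 and 24.6 kb in C18 (log2 difference 0.83, SE 0.10, adjusted p = 0.011, limma). Nrg3, a growth factor that binds the receptor Erbb4, had 4.99 and 4.01 kb in C10, against 0.77 and 0.78 kb in C18 (log2 difference 2.26, SE 0.30, adjusted p = 0.012, limma). Inpp4b, a phosphoinositide phosphatase, had 18.3 and 18.2 kb in C10, against 11.95 and 9.84 kb in C18 (log2 difference 0.74, SE 0.12, adjusted p = 0.018, limma). Celf2 had 34.2 and 36.1 kb in C10, against 27.4 and 21.9 kb in C18 (log2 difference 0.52, SE 0.13, adjusted p = 0.048, limma). In each of these 5 members both C10 libraries lay above both C18 libraries. Of the 11 members with described roles in blood cells, 4 were called higher (Auts2, Inpp4b, Fhit and Celf2) and 0 lower, beside 10 and 9 of all 118 members.

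Several of the lower members were sparse. Cntnap5a was listed at 0 kb in C10, against 2.86 and 1.98 kb in C18, and Fgf14, a sodium channel partner, was listed at 0 kb in C10, against 1.14 and 0.42 kb in C18. Epha6, an ephrin receptor, had 0.80 and 0.54 kb in C10, against 2.98 and 2.13 kb in C18 (log2 difference -1.66, SE 0.29, adjusted p = 0.021, limma). Tenm2, a teneurin, had 2.83 and 2.52 kb in C10, against 5.89 and 10.2 kb in C18, and Lrp1b had 1.14 and 2.03 kb in C10, against 7.35 and 3.62 kb in C18. Camta1, one of the densest members, had 25.1 and 23.8 kb in C10, against 36.3 and 56.5 kb in C18 (log2 difference -0.88, SE 0.21, adjusted p = 0.043, limma). Ptprt, a receptor phosphatase, Rbms3 and Cacna2d3, a calcium channel subunit, were the others called lower.

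The 10 higher calls were also made with HOMER, and the 9 lower calls were not. The HOMER lists called 87 members (73.7%) higher in C10 and 0 lower, where 15.9% and 19.0% of all genes were called, with a median log2 difference of 1.11 over members and -0.08 over all genes. The difference in HOMER list length between C10 and C18 runs the same way, and its part in these calls was not tested. Of the 9 lower members 6 had a positive difference with HOMER, and Lrp1b (1.70, adjusted p = 0.045) and Rbms3 (1.49, adjusted p = 0.011) were called higher (limma). Without scaling the F-Seq lists gave 45 members higher and 4 lower, where 13% and 2.59% of all genes were called, and moved the median of all genes to 0.22. Scaling to the median ratio gave 21 higher and 5 lower, where 7.85% and 5.04% of all genes were called. Calls were lost when a C10 or a C13 library was left out. Those fits leave 1 library in a group, so their counts are not given. The median over members was 0.08 without C10 replicate 1 and 0.295 without C10 replicate 2, against -0.15 and -0.17 over all genes. It was 0.27 without C18 replicate 1 and 0.09 without C18 replicate 2, against -0.15 over all genes in both.

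**Figure D5:**
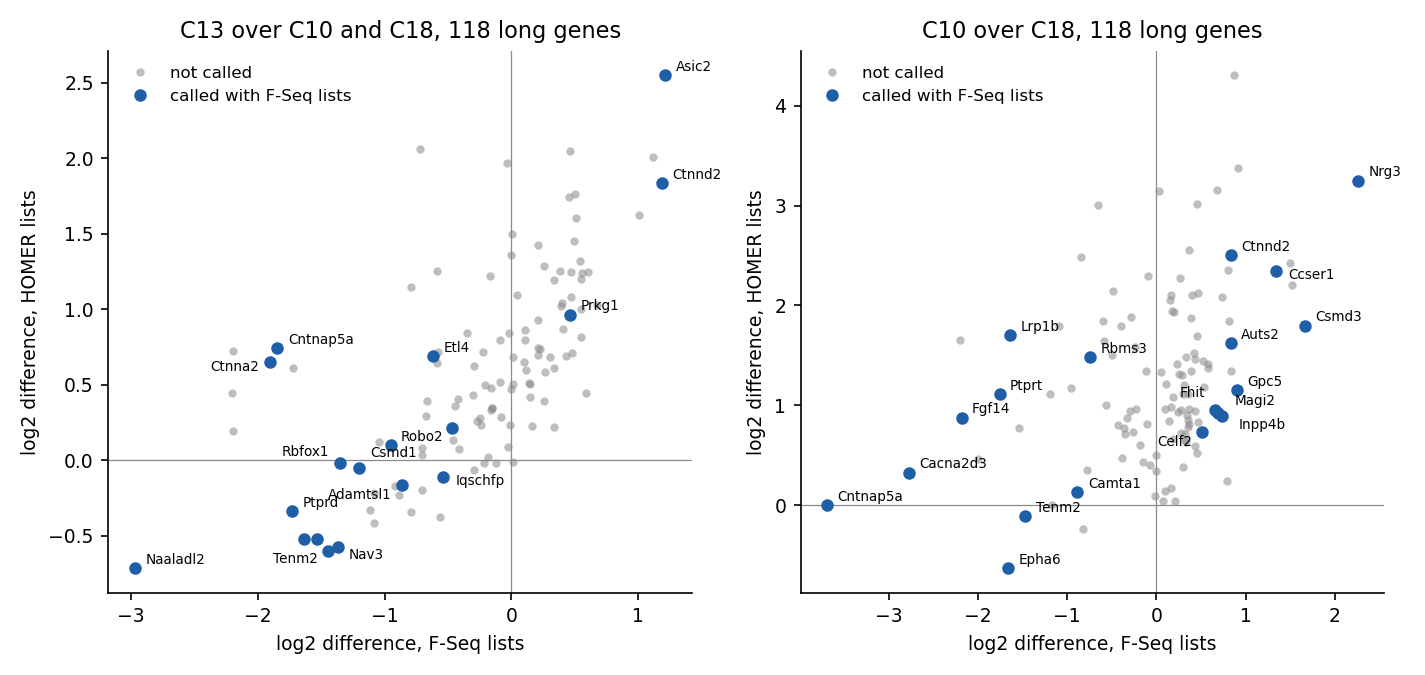
Log2 difference of covered bases with the HOMER lists (vertical axis) against that with the F-Seq lists (horizontal axis) for each of the 118 long genes, C13 over C10 and C18 on the left and C10 over C18 on the right; blue points were called with the F-Seq lists. With HOMER, 96 members lay above 0 in the left plot and 115 in the right, against 52 and 74 with F-Seq.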

How the data were processed

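Open chromatin was measured by ATAC-seq in 8 libraries, grouped by sample title. The authors' processed data are 16 peak lists, 1 F-Seq and 1 HOMER list per library, on mm10; the submitters' processing notes name Bowtie 1.0.0 and HOMER 1.0, with no version of F-Seq (not given in the sources used here). As deposited, F-Seq lists hold 100000 peaks each with a height as signal, and the deposited HOMER lists hold 150-base peaks with 2 unlabelled score columns. Signal and score (the first column) only ranked peaks within a list. Other steps before deposit are not stated. Without read counts the depth is unknown and intervals for counting error cannot be formed. The members, gene lists and tests were chosen with earlier results of these data known.

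Gene bodies and promoter windows came from RefSeq tables for GRCm38.p6. A peak was counted in a gene when its midpoint lay in the gene body. Densities were pooled over genes (peaks divided by Mb), and the log2 ratio of long over medium genes was tested over libraries with an exact sign-flip permutation test. Regions were the merged union of the 8 F-Seq lists, called with at least 1 base of overlap. The bases under peaks per gene were scaled by factors of 0.885 to 1.43 to equal total covered length. Genes covered in at least 2 libraries were fitted with limma 3.58.1 (R 4.3.3), 4 group means and eBayes with trend, on the log2(bases + 200) scale, which understates differences of sparsely covered genes. The fit was tested on simulated data. Named members are the 5 longest, the 3 nearest to 700 kb on each side, the 8 densest and 8 sparsest, up to 8 called per contrast and direction by smallest p, up to 12 per state of the start, up to 8 with the most population-specific regions, and up to 4 per list by length; other names were added after their values were seen, and some members under this rule are not reported here. Alternatives were HOMER lists, the 20000 strongest peaks, other length limits and comparison classes, start windows, scalings, offsets of 50 and 1000 bases, filters, a replicate block, and leaving out libraries.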

Additional observations from a re-analysis of the deposited data

Results flagged for a closer look

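With the HOMER lists, the populations differed in the log2 ratio of peak density in long over medium genes. The range of the 4 population means was 0.879 (exact permutation test, one-sided, p = 0.019), with C18 at -2.60, the lowest, and C10 at -1.72, the highest. The range was 0.719 without peaks within 5 kb of gene starts (exact p = 0.019) and 0.516 with the 70000 highest-scoring HOMER peaks of each library (exact p = 0.048). With the F-Seq lists it was 0.198 and did not pass the test (exact p = 0.2). Within replicate numbers the exact permutation test of that range gave p = 0.042, the smallest it allows. HOMER list length differed between the populations in the same order at its low end, with C18 shortest, and was equal in the setting with 70000 peaks. The part of list length in the other settings was not tested.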

How the results depend on the processing

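The ratios of peaks and bases and the difference in open starts kept direction and call in all 22, 18 and 17 alternatives; leaving out a library gave log2 ratios of peaks from -2.01 to -1.97, of bases from -2.25 to -2.20, and start differences from -34.3 to -33.4 points. Any listed start gave -29.2 points. Overlapping bodies counted once, HOMER without starts, the 70000 highest-scoring HOMER peaks, any listed start, starts at the gene edge and the replicate block of the density ratio were chosen after seeing the data.

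The population range of the density ratio (0.198) passed the threshold with HOMER (0.879), HOMER without starts (0.719), the 70000 highest-scoring HOMER peaks (0.516) and the replicate block (0.198, exact p = 0.042, the smallest it allows). It ran from 0.145 to 0.253 without single libraries.

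Counts of called members are given as higher and lower, first for C13 (3 and 15) and then for C10 (10 and 9). HOMER gave 30 and 0, then 87 and 0. No scaling gave 10 and 9, then 45 and 4. No filter gave 1 and 9, then 6 and 2. The number of peaks gave 1 and 8, then 5 and 3. The 20000 strongest peaks gave 13 and 18, then 17 and 4, of 94 members tested. Of the 12005 genes tested in that setting, 906 and 1356 were called, then 642 and 1322. Median-ratio scaling gave 21 and 5 for C10. Leaving out peaks near starts gave 24 lower in C13. For C2 (0 and 0), the 20000 strongest peaks gave 1 and 9 of 94 members, where 745 and 406 of 12005 genes were called. The number of peaks gave 3 lower, peaks away from starts 1 lower, and C10 alone as comparison (without C18) 3 and 8. Shares of all genes are not given for no filter, the number of peaks, peaks away from starts, C10 alone and the replicate block. Those counts thus do not show if members differed from other genes. Without single libraries the counts ran from 0 to 12 and 0 to 20 in C13, 0 to 21 and 0 to 11 in C10, and 0 to 0 and 0 to 6 in C2; a group left with 1 library is assumed to vary like the others.

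Over genes, replicate differences in covered bases were nearly uncorrelated between populations (correlations -0.0079 to 0.0843). In the F-Seq log2 ratio of peak density, however, replicate 1 lay above replicate 2 in each population. Whether the replicate numbers pair the libraries is thus not settled. A fit with a replicate block gave 1 and 11 in C13, 9 and 7 in C10 and 0 and 0 in C2.

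HOMER turned the difference of Cntnap5a (0.74), Robo2 (0.10), Etl4 (0.69) and Ctnna2 (0.65) in C13 and of Cacna2d3 (0.33), Fgf14 (0.88), Lrp1b (1.70), Ptprt (1.11), Camta1 (0.13) and Rbms3 (1.49) in C10 to positive. The 20000 strongest peaks turned Epha6 in C10 to 2.14. The cause was not tested. The lists end at a fixed number or an unknown threshold, and depth is unknown, so the absence of a peak is not the absence of open chromatin.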

Other observations

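The X chromosome was outside the length classes above, and its genes showed the same order. The 6 X-linked genes of 700 kb or more (Tenm1, Dmd, Il1rapl1, Diaph2, Il1rapl2 and Frmpd4) held 4.18 ± 1.26 F-Seq peaks per Mb, and the 69 X-linked genes of 100 to 200 kb held 25.2 ± 5.01 (SD, n = 8 libraries). The highest library of the long X-linked genes, at 6.05 peaks per Mb, lay below the lowest library of the medium ones, at 18.02. This was not tested.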
